A study of Mus musculus with 10 samples.

Results

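Lymphocytes were followed in the pancreas of mice expressing IL-23 through 9 marker genes: Ptprc, Cd3d, Cd3e, Cd3g, Cd4, Cd8a, Cd79a, Cd79b and Il7r. They were chosen by symbol as genes that mark T cells, B cells or leukocytes in general, and all 9 were found among the 24062 genes of the count files. KSR23 mice carry, in ROSA26, the p19 and p40 chains of IL-23 blocked by a floxed STOP, which Cre removes where the keratin 14 promoter is active, as in keratinocytes. RNA came from the whole pancreas of 5 WT and 5 KSR23 mice on the C57BL/6 background, the WT mice being control littermates, at postnatal day 5 (P5), with 1 library per mouse. Whether the loss or gain of a transcript reflects the number of cells or the RNA in each cell cannot be told apart in such bulk tissue.

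The T cell receptor recognizes antigen but cannot signal by itself, and its signal passes through the CD3 chains, encoded by Cd3d, Cd3e and Cd3g, which assemble into pairs that each contain the epsilon chain. The B cell receptor signals in the same way through the pair of CD79a and CD79b. CD4 and CD8 are the coreceptors that direct T cells to MHC class II and class I, CD45, encoded by Ptprc, is a phosphatase on the surface of leukocytes, and the interleukin-7 receptor, encoded in part by Il7r, keeps T cells and innate lymphoid cells alive. CD4 is found on some myeloid cells as well, and Il7r is also expressed by some stromal cells.

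The 3 CD3 genes lie together on chromosome 9 (GRCm38): Cd3g from 44969572 to 44980431 on the minus strand, Cd3d from 44981786 to 44987339 on the plus strand and Cd3e from 44998740 to 45009627 on the minus strand. Cd3d and Cd3g start 1355 bases apart and are read in opposite directions, while Cd3e starts 27841 bases from Cd3d. Their promoters are shown because Cd3e moved against both of its neighbours in the libraries described here. The RefSeq windows (GRCm38.p6) run from 250 bases before to 50 bases after the start site. They were searched on both strands for the ETS core AGGAAG, for a GATA factor site read as AGATAA, for the STAT pattern TTCNNNGAA and for the TATA box TATAAA. Capitals mark the matches, and positions are those of the leftmost base of a match.
Cd3d, chr9:44981536-44981835, + strand: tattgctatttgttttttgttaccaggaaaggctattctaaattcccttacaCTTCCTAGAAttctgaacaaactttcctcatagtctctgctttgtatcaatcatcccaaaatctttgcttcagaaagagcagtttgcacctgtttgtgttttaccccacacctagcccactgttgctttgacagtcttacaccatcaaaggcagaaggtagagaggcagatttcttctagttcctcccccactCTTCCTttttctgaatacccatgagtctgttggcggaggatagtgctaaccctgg
Cd3g, chr9:44980382-44980681, - strand: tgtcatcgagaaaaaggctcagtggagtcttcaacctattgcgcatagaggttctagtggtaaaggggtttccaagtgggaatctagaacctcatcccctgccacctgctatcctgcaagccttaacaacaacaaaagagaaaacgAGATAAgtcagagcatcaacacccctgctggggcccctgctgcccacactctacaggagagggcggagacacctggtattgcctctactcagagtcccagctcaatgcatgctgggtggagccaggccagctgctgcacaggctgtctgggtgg
Cd3e, chr9:45009562-45009861, - strand: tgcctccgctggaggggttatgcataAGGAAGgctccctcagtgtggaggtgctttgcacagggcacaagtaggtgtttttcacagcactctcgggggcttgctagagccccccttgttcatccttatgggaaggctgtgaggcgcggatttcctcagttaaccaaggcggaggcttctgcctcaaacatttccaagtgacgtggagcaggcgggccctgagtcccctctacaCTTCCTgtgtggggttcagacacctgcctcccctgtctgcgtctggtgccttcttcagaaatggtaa
The Cd3d window holds AGGAAG at positions -198 and -5 from the start site, and TTCNNNGAA at -197, which overlaps the first of these. Cd3e holds AGGAAG at -224 and -17, and Cd3g holds AGATAA at -104 alone. TATAAA was found in none of the 3 windows. Among 32851 RefSeq promoter windows of this length, 35.4% hold AGGAAG, 11.2% AGATAA, 8.30% TTCNNNGAA and 13.6% TATAAA, and the matches are given as a description only.

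Gene counts summed to 26830235 to 33189132 per WT library and to 16715976 to 57784136 per KSR23 library, of which KSR23 mouse 3 was the smallest and KSR23 mouse 5 the largest. Values are given as raw counts and as CPM, the count scaled to a fixed library size after TMM adjustment of the totals, for which 3 counts correspond to between 0.0535 and 0.168 CPM. Records of alignments that were not unique made up 49.6% to 53.7% of all records in WT libraries and 38.5% to 42.5% in KSR23 libraries, and those reads were counted on no gene. WT mice 1 and 2 stood apart from the other WT mice in Reg3b, a secreted antimicrobial lectin of pancreas and gut, with 691 and 729 CPM against 4.73 to 14.6 CPM, and KSR23 mice had 14198 to 29227 CPM. Fits without these 2 mice are given beside the results they changed. All 11 genes of a pancreas list, among them Cpa1, Ins2 and Gcg, were expressed, at a summed level of 197426 to 217083 CPM in WT and 152356 to 187206 CPM in KSR23 mice.

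Of the 9 markers, 6 had at least 5 counts in every library and were tested among 13882 genes. Ptprc and Cd3g were higher and Cd3e was lower in KSR23 mice at the threshold of 0.05 on the adjusted p, while Cd4, Cd79a and Cd79b were not called. In this test 31.0% of all genes were called, 16.2% higher and 14.8% lower, so 3 calls among 6 markers are to be read against a high background. Scaling by library size alone gave 3075 higher and 1161 lower genes, against 2250 and 2049 with TMM scaling, and the same 3 markers were called in the same directions. The median log2 fold change (log2 FC) of the 6 markers was 0.26, and that of all tested genes was -0.01. Cd3d, Cd8a and Il7r had under 5 counts in at least 1 library. They were taken from the same model fitted to all 19227 genes with any count, in which 22.9% were called, 12.0% higher and 10.9% lower. There Cd3d and Cd8a were called higher and Il7r was not called. Cd8a had 0 counts in every WT library and entered this fit through its KSR23 counts alone. Its call and its separation in CPM are therefore not independent of the choice of genes. In CPM the KSR23 group lay wholly above the WT group for Cd3d and Cd8a and wholly below it for Cd3e, and the other 6 markers overlapped. Such separation was seen upwards in 8.51% and downwards in 6.69% of the genes with any count, and in 10.7% and 8.77% of the 13882 filtered genes.

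**Figure D1:**
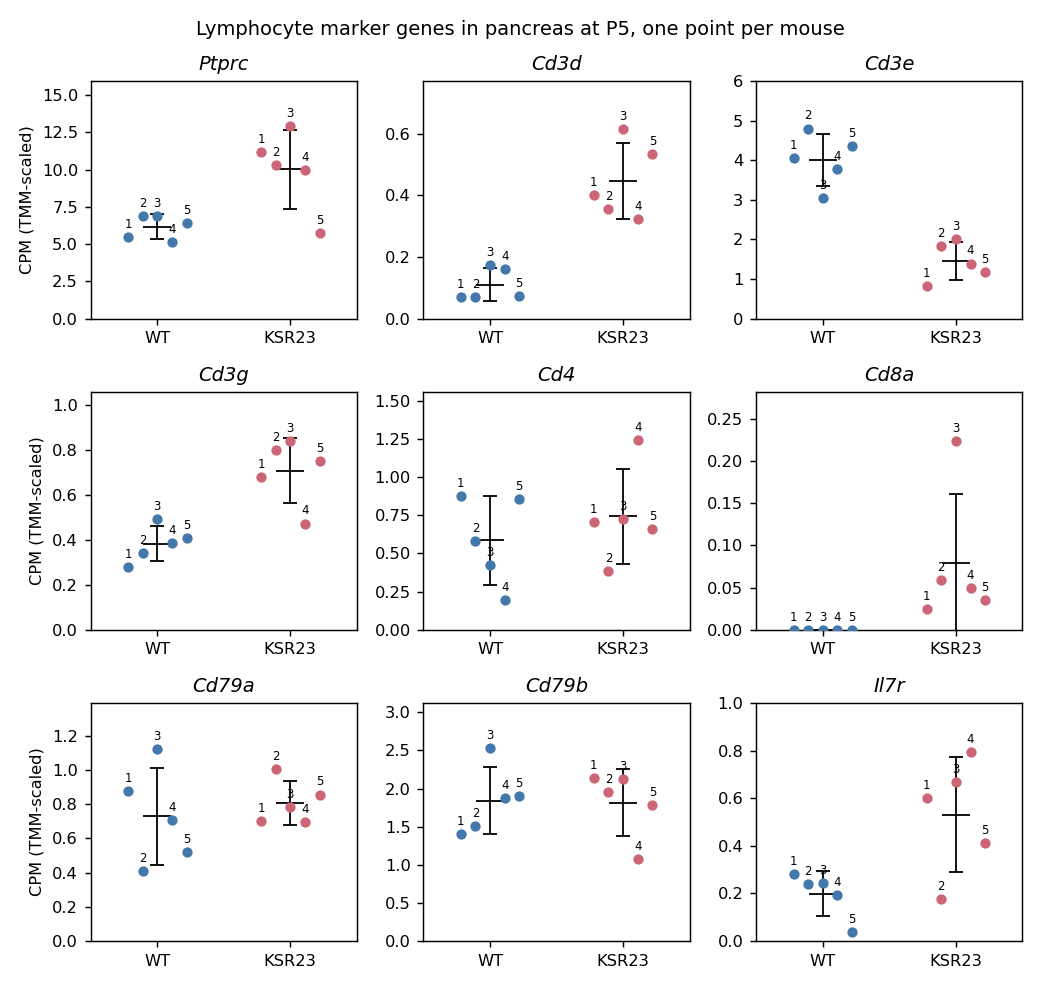
CPM (TMM-scaled) of the 9 lymphocyte markers in pancreas at P5, with 1 numbered point per mouse for 5 WT and 5 KSR23 mice and black bars for the mean and SD. Cd3e is lower in every KSR23 mouse, Cd3d is higher in every KSR23 mouse, and Cd79a and Cd79b overlap widely.

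Ptprc encodes CD45, which removes an inhibitory phosphate from the kinases that start antigen receptor signals, and it lies on chromosome 1 from 138062861 to 138175708. It had 156, 201, 197, 159 and 173 counts in WT mice 1 to 5 and 446, 349, 231, 402 and 322 counts in KSR23 mice 1 to 5. All KSR23 libraries held more Ptprc counts than any WT library, but after scaling KSR23 mouse 5, the largest library, had 5.75 CPM and fell within the WT range of 5.13 to 6.91 CPM. The other 4 KSR23 mice ranged from 9.999 to 12.9 CPM, the highest being KSR23 mouse 3. The level was 6.17 ± 0.828 CPM in the WT group against 10.04 ± 2.65 CPM in the KSR23 group (mean ± SD of 5 mice). The log2 FC was 0.69 (SE 0.172, edgeR quasi-likelihood, adjusted p = 0.00553), and p = 0.0317 was obtained for CPM when all 252 ways of dividing the mice were enumerated (exact permutation, two-sided). Permutation was applied to each of the 9 markers, and those p-values are unadjusted.

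The CD3 delta gene Cd3d was close to the limit of detection in WT mice, with 2, 2, 5, 5 and 2 counts, and had 16, 12, 11, 13 and 30 counts in KSR23 mice. The WT range of 0.0686 to 0.175 CPM lay below the KSR23 range of 0.323 to 0.615 CPM, with no overlap. Cd3d measured 0.110 ± 0.0536 CPM in the WT group against 0.446 ± 0.124 CPM in the KSR23 group (mean ± SD of 5 mice), a log2 FC of 1.955 (SE 0.512, edgeR quasi-likelihood on any-count genes, adjusted p = 0.00784, and exact permutation p = 0.00794, the minimum for 5 mice against 5). With WT mice 1 and 2 left out together, the log2 FC was 1.65 and the call was lost (adjusted p = 0.0613).

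The CD3 gamma gene Cd3g, which starts next to Cd3d, had 8, 10, 14, 12 and 11 counts in WT mice and 27, 27, 15, 19 and 42 counts in KSR23 mice. It measured 0.382 ± 0.0784 CPM in the WT group against 0.708 ± 0.144 CPM in the KSR23 group (mean ± SD of 5 mice). The groups touched only through WT mouse 3, at 0.491 CPM, and KSR23 mouse 4, at 0.473 CPM. The log2 FC was 0.87 (SE 0.294, edgeR quasi-likelihood, adjusted p = 0.0321, and exact permutation p = 0.0159). This call was a narrow one: it was lost with DESeq2 (adjusted p = 0.0573), among all genes with any count (adjusted p = 0.0878), and in 7 of the 10 fits that left out 1 mouse, namely WT mouse 1, 2 or 4 and KSR23 mouse 1, 2, 3 or 5 (adjusted p from 0.0537 to 0.0675). Without WT mice 1 and 2 together its log2 FC was 0.70 (adjusted p = 0.143).

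The CD3 epsilon gene Cd3e moved the other way. It had 116, 140, 87, 117 and 117 counts in WT mice and 33, 62, 36, 56 and 66 counts in KSR23 mice, so that every KSR23 library held fewer counts than any WT library although 4 of the 5 KSR23 libraries were larger than any WT library. Its level was 4.01 ± 0.657 CPM in the WT group against 1.45 ± 0.481 CPM in the KSR23 group (mean ± SD of 5 mice), with lowest and highest values of 3.05 and 4.804 CPM in WT and of 0.830 and 2.01 CPM in KSR23 mice. The log2 FC was -1.50 (SE 0.225, edgeR quasi-likelihood, adjusted p = 5.77e-05, and exact permutation p = 0.00794). The log2 FC stayed between -1.62 and -1.36 over 18 alternative fits, and the call was kept in each.

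Within WT libraries the epsilon gene was far more abundant than the other CD3 genes. For each Cd3g count there were between 6.21 and 14.5 Cd3e counts in WT mice and between 1.22 and 2.95 in KSR23 mice, a ratio that does not depend on how libraries are scaled. Cd3e made up 82.1% to 92.1% of the counts on the 3 CD3 genes in WT mice and 43.4% to 63.6% in KSR23 mice. The sum of the 3 genes was therefore lower in KSR23 mice, at 1.91 to 3.46 CPM against 3.72 to 5.22 CPM in WT mice, while the sum of Cd3d and Cd3g alone was 0.796 to 1.45 CPM against 0.350 to 0.667 CPM. These sums and ratios were formed after the values were seen and are given without a test. GENCODE M21 annotates an antisense gene, Gm48719, on the plus strand from 44999429 to 45002985, whose exons share 135 bases with those of Cd3e, 3.31% of its exon bases, and which is not listed in the count files. The library kit does not mark strand, so that reads of either gene on these bases cannot be told apart. Counts per gene do not show where in a gene the reads lie, so whether the Cd3e counts came from the spliced T cell transcript was not tested. The other 8 markers share no exon bases with another gene.

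**Figure D2:**
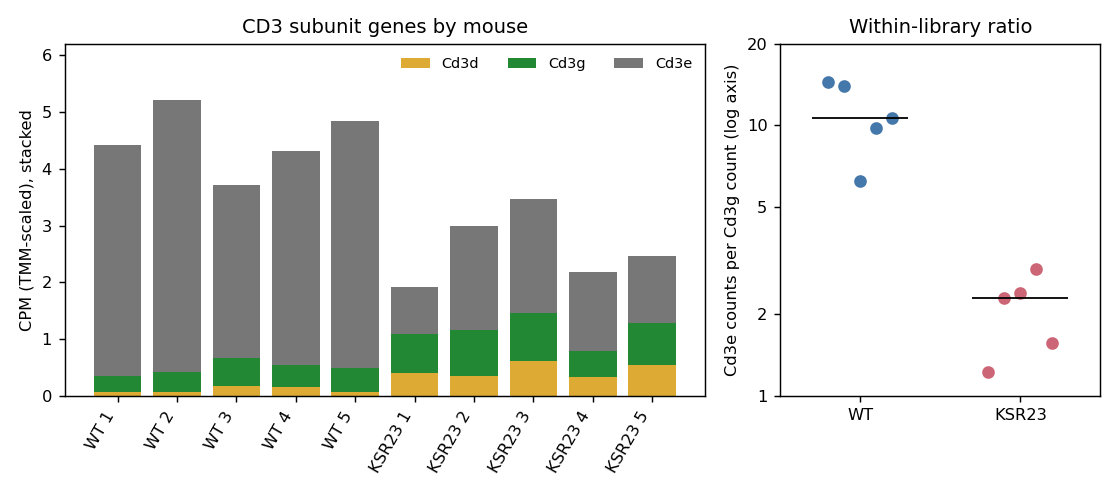
Left, CPM (TMM-scaled) of Cd3d, Cd3g and Cd3e stacked for each mouse; right, Cd3e counts per Cd3g count in each library on a log axis, with a line at the median of each group. The grey Cd3e part is smaller, and Cd3d and Cd3g together are larger, in every KSR23 mouse than in any WT mouse, and the ratio runs from 1.22 to 2.95 in KSR23 mice and from 6.21 to 14.5 in WT mice.

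The coreceptor gene Cd4 (chromosome 6, 124864692 to 124888221) had 25, 17, 12, 6 and 23 counts in WT mice and 28, 13, 13, 50 and 37 counts in KSR23 mice. The level was 0.586 ± 0.291 CPM in the WT group against 0.744 ± 0.311 CPM in the KSR23 group (mean ± SD of 5 mice), and the groups overlapped, with KSR23 mouse 4 alone above all WT mice. The log2 FC was 0.36 (approximate 95% interval, -0.39 to 1.1; edgeR quasi-likelihood, adjusted p = 0.507), so that the interval held differences of either sign. Cd8a, on the same chromosome from 71373427 to 71379173, encodes the alpha chain of CD8. It had 0 counts in all 5 WT libraries and 1, 2, 4, 2 and 2 counts in the KSR23 libraries, the 4 counts being in KSR23 mouse 3. Cd8b1, the gene of the CD8 beta chain, did not show this pattern. It had 1, 1, 0, 3 and 2 counts in WT mice and 2, 2, 0, 0 and 3 counts in KSR23 mice. Its log2 FC was -0.40 (edgeR quasi-likelihood on any-count genes, adjusted p = 0.812). The 11 Cd8a counts of the KSR23 group came to 0.0586 CPM. This was 2.81 times a limit of 3 counts over the WT group, or 0.0208 CPM, without allowance for the counting error of the 11 counts. Cd8a was called among all genes with any count (edgeR quasi-likelihood, adjusted p = 0.0386, and exact permutation p = 0.00794), but it entered that test through its KSR23 counts alone, and the call was lost in 8 of the 10 fits without 1 mouse, namely each WT mouse and KSR23 mouse 2, 3 or 4 (adjusted p from 0.0547 to 0.0906), and without WT mice 1 and 2 together (adjusted p = 0.118).

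The signalling pair of the B cell receptor did not differ detectably between the groups. Cd79a (chromosome 7, 24897381 to 24902197) had 25, 12, 32, 22 and 14 counts in WT mice and 28, 34, 14, 28 and 48 counts in KSR23 mice. Cd79b (chromosome 11, 106311341 to 106314762) had 40, 44, 72, 58 and 51 counts in WT mice and 85, 66, 38, 43 and 100 counts in KSR23 mice. Cd79a measured 0.728 ± 0.283 CPM in the WT group against 0.809 ± 0.128 CPM in the KSR23 group, and Cd79b 1.84 ± 0.441 CPM against 1.81 ± 0.440 CPM (mean ± SD of 5 mice). Both genes were highest in WT mouse 3, at 1.123 and 2.53 CPM, and the groups overlapped. The log2 FC of Cd79a was 0.15 (95% interval, -0.42 to 0.73; adjusted p = 0.736) and that of Cd79b was -0.03 (95% interval, -0.49 to 0.43; adjusted p = 0.934, both from edgeR quasi-likelihood). For each Cd79a count there were 1.60 to 3.67 Cd79b counts in WT mice and 1.54 to 3.04 in KSR23 mice, so that the proportions of the pair overlapped.

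Il7r (chromosome 15, 9505788 to 9530176) encodes the alpha chain of the interleukin-7 receptor. It had 8, 7, 7, 6 and 1 counts in WT mice and 24, 6, 12, 32 and 23 counts in KSR23 mice. The KSR23 range of 0.178 to 0.796 CPM overlapped the WT range of 0.0372 to 0.280 CPM through KSR23 mouse 2 alone. The log2 FC was 1.37 (SE 0.519, edgeR quasi-likelihood on any-count genes, adjusted p = 0.0609, and exact permutation p = 0.0397). Il7r passed the threshold with KSR23 mouse 2 left out (adjusted p = 0.0272), with the likelihood ratio test (adjusted p = 0.0302), with DESeq2 (adjusted p = 0.0485) and under scaling by library size alone (adjusted p = 0.0442).

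**Figure D3:**
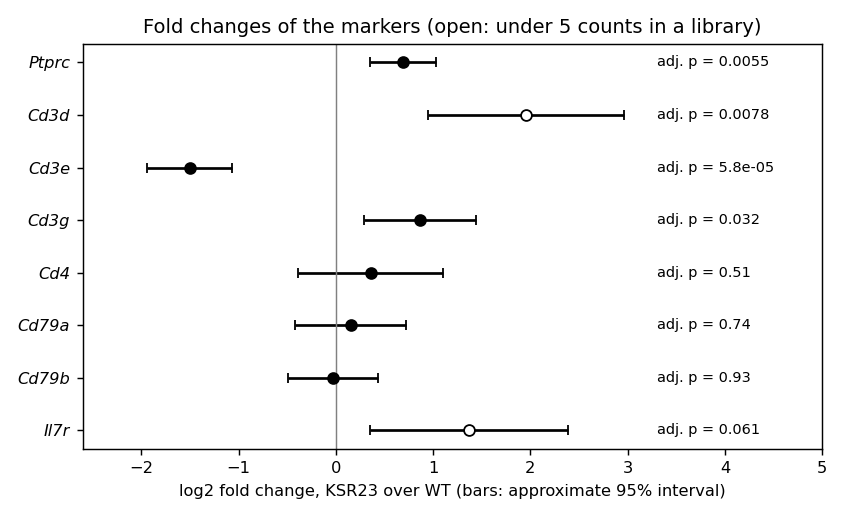
Log2 fold change of KSR23 over WT for 8 of the markers, with bars for the approximate 95% interval and the adjusted p of edgeR's quasi-likelihood test beside each; open points mark Cd3d and Il7r, which had under 5 counts in a library and come from the fit on all genes with any count. Cd8a is left out because its WT counts are 0. Only Cd3e lies wholly below 0, and the bars of Cd4, Cd79a and Cd79b cross 0.

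To compare levels between genes, CPM was divided by the length in kilobases of the longest coding transcript of each gene in GENCODE M21. In WT mice Cd3e was highest, at 2.74 ± 0.449 CPM per kilobase (SD, n = 5), apart from all others. It was followed by Cd79b (1.29 ± 0.308) and Ptprc (1.22 ± 0.163), which overlapped, and by Cd79a (0.500 ± 0.194), Cd3g (0.374 ± 0.0767), Cd4 (0.189 ± 0.0936), Cd3d (0.0680 ± 0.0331) and Il7r (0.0563 ± 0.0270 CPM per kilobase), each of which overlapped with the next. In KSR23 mice the order of mean levels was Ptprc (1.98 ± 0.523), Cd79b (1.27 ± 0.307), Cd3e (0.991 ± 0.329), Cd3g (0.692 ± 0.141), Cd79a (0.555 ± 0.0880), Cd3d (0.276 ± 0.0768), Cd4 (0.239 ± 0.100), Il7r (0.150 ± 0.0684) and Cd8a (0.0251 ± 0.0262 CPM per kilobase). Of these neighbours in KSR23 mice, only Cd79a and Cd3d had ranges that did not overlap. Cd3e thus stood above Cd79b in every WT mouse and below it on average in KSR23 mice.

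Other genes of the same cells and pathways were examined in fixed lists, whose counts are to be read against the 16.2% of all tested genes that were higher and the 14.8% that were lower. Of 22 genes of T cell receptor signalling and the T lineage, 10 had enough counts to be tested, 5 were higher and none was lower in KSR23 mice, with a median log2 FC of 0.45 and a summed level of 20.5 to 23.2 CPM in WT against 27.2 to 34.7 CPM in KSR23 mice. Bcl11b, a transcription factor of T cell commitment, had a log2 FC of 1.49 (adjusted p = 0.00133), the adaptor gene Lcp2 had 0.80 (adjusted p = 0.00226) and the kinase gene Lck, whose product phosphorylates the CD3 chains, had 0.75 (adjusted p = 0.0313, all from edgeR quasi-likelihood). None of these 3 overlapped between the groups. The 5 tested genes that were not called, Lat, Cd2, Cd6, Thy1 and Skap1, had log2 FC from -0.34 (Skap1) to 0.45 (Lat). Their adjusted p ran from 0.218 to 0.951 in the same test. The call of Lck was lost without WT mouse 4 or 5 or KSR23 mouse 3 (adjusted p from 0.0754 to 0.0931), and 4 genes of the list were called without WT mice 1 and 2 together. Of the other CD3 partner, Cd247, which encodes the zeta chain, the level was 0.355 CPM in WT and 0.364 CPM in KSR23 mice, with too few counts for the filtered test.

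Of 22 genes of B cell receptor signalling and the B lineage, 8 were tested, 5 were higher and none was lower, with a median log2 FC of 0.42 and a summed level of 50.02 to 56.9 CPM in WT against 58.0 to 64.8 CPM in KSR23 mice. The higher genes were Cd72 (log2 FC 1.70, adjusted p = 0.000365), Cd37 (0.72, adjusted p = 0.0141), the adaptor gene Blnk (0.49, adjusted p = 0.0425), Syk (0.58, adjusted p = 0.0278) and the kinase gene Lyn (0.35, edgeR quasi-likelihood, adjusted p = 0.00372), of which Syk and Lyn are also used by myeloid cells. Pax5 and Rag1 had 0 counts in all libraries. With WT mice 1 and 2 left out together, 3 of the 8 genes were called, and Blnk (adjusted p = 0.214) and Cd37 (adjusted p = 0.0888) were not. Leaving out 1 mouse ended the call of Blnk in each case but WT mouse 3 or 5, and that of Syk without WT mouse 1, 3 or 4 or KSR23 mouse 1.

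In the list of 12 genes of the interleukin-7 receptor pathway, all were tested, 4 were higher and 1 was lower, with a median log2 FC of 0.11. Il2rg, the common gamma chain that pairs with IL-7 receptor alpha, had a log2 FC of 0.00 (adjusted p = 0.996) and its ligand gene Il7 had -0.35 (adjusted p = 0.391). Tslp, Stat5a, Stat5b, Cish and Socs1 were also not called, with log2 FC from -0.18 (Cish) to 0.30 (Socs1). Their adjusted p ran from 0.176 to 0.951 (edgeR quasi-likelihood), and Socs1 passed the threshold without WT mouse 1 (adjusted p = 0.0427). The kinase gene Jak3 had a log2 FC of 2.04 (adjusted p = 5.58e-09) and Socs3, a feedback inhibitor of cytokine signals in many cell types, had 2.65 (adjusted p = 3.80e-10). Crlf2, whose product pairs with the IL-7 receptor alpha chain in the receptor for TSLP, had 0.62 (adjusted p = 0.00411), and Jak1 had 0.25 (adjusted p = 0.0132). The survival gene Bcl2 was lower, by a log2 FC of -0.30 (adjusted p = 0.0289, all from edgeR quasi-likelihood), a call that was lost under scaling by library size alone, without WT mouse 2 or 4, and without KSR23 mouse 1, 4 or 5. Without WT mice 1 and 2 together, Bcl2 (adjusted p = 0.0674) and Jak1 (adjusted p = 0.119) were not called, which left 3 higher genes and none lower.

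Among 15 genes of innate lymphoid and IL-17 or IL-22 producing cells, 7 were tested and 2 were higher, a share near that of all genes called in either direction: Ltb, which encodes lymphotoxin beta, with a log2 FC of 2.13 (adjusted p = 7.32e-07), and the transcriptional regulator gene Id2 with 0.54 (adjusted p = 1.50e-05, both from edgeR quasi-likelihood). No gene of 13 natural killer and cytotoxic cell genes had enough counts for the filtered test. Their summed level was 0.410 to 1.09 CPM in WT and 1.21 to 4.47 CPM in KSR23 mice. The highest value was that of KSR23 mouse 3, and without it the KSR23 mice reached 1.42 CPM. Of these genes, Nkg7 and Ccl5 had the highest means in KSR23 mice, at 0.258 and 0.0856 CPM in WT and 0.544 and 0.275 CPM in KSR23 mice. Both overlapped between the groups. Neither was called among all genes with any count (edgeR quasi-likelihood, adjusted p = 0.246 and 0.102).

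Like Ptprc, most genes shared by all leukocytes were higher in KSR23 mice. Of 18 pan-leukocyte genes, 17 were tested, 14 were higher and none was lower, with a median log2 FC of 0.77, close to the 0.69 of Ptprc itself. Cd52 had a log2 FC of 1.75 (adjusted p = 2.33e-05), the signalling gene Vav1 had 1.303 (adjusted p = 1.42e-05), the integrin gene Itgal had 1.14 (adjusted p = 2.26e-05) and Coro1a had 0.96 (edgeR quasi-likelihood, adjusted p = 0.00015), all without overlap. Ptprcap, whose product binds CD45, had 0.92 (adjusted p = 0.0151). The summed level of the list was 178 to 196 CPM in WT and 224 to 366 CPM in KSR23 mice, lowest in KSR23 mouse 5 and highest in KSR23 mouse 3, as was Ptprc. Without WT mice 1 and 2 together, 12 of the 17 genes were higher.

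Markers of myeloid cells were mostly higher as well. Of 20 such genes, 18 were in the count files and were tested, 12 were higher and 1 was lower, with a median log2 FC of 0.72. S100a9 (log2 FC 2.48, adjusted p = 0.000788) and S100a8 (2.38, adjusted p = 0.00105) of neutrophils, Cd14 (1.85, adjusted p = 4.46e-09) and Cx3cr1 (1.31, edgeR quasi-likelihood, adjusted p = 4.44e-06) were higher, with every KSR23 mouse above every WT mouse. KSR23 mouse 3 stood apart in S100a8 and S100a9, and without it their log2 FC were 1.47 and 1.54 (adjusted p = 0.000112 and 3.36e-05). Without WT mice 1 and 2 together, 11 of the 18 genes were higher. The summed level of the 18 genes was 472 to 569 CPM in WT and 552 to 1019 CPM in KSR23 mice, and none of them was at 0 in all libraries. Their part in the higher level of Ptprc was not tested. The 1 lower gene was C1qa (log2 FC -0.80, adjusted p = 4.74e-07), whose partners in the complement complex C1q were higher, C1qb with 0.80 (adjusted p = 2.47e-06) and C1qc with 0.71 (adjusted p = 1.74e-05 in the same test). Of 10 genes of lymph node and spleen stroma, 4 were tested and 3 were lower: Cxcl13, a B cell attracting chemokine (-1.11, adjusted p = 0.00726), Lyve1 (-0.59, adjusted p = 0.000322) and Madcam1 (-0.58, adjusted p = 0.000873). Ccl21a, a defining chemokine of lymph node stroma, had 0 counts in all libraries. Reads without a unique alignment were counted on no gene, so this 0 does not show that the gene was silent.

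**Figure D4:**
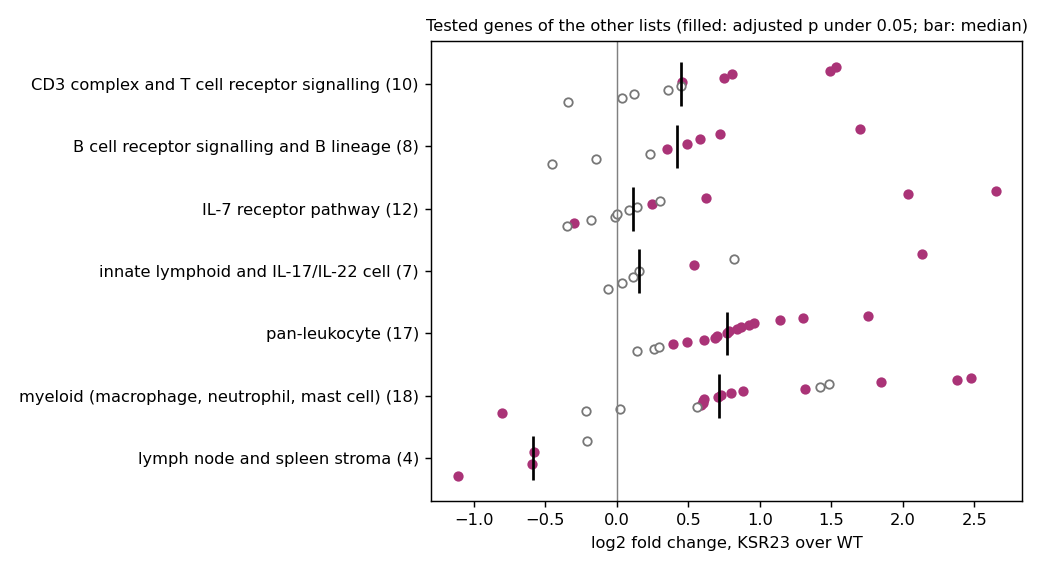
Log2 fold change of KSR23 over WT for the tested genes of 7 lists, 1 point per gene, filled where the adjusted p of edgeR's quasi-likelihood test was under 0.05, with a black bar at the list's median and the number of tested genes in brackets. Medians lie at 0.77 for pan-leukocyte and 0.72 for myeloid genes, at 0.45 and 0.42 for the T and B cell lists, and at -0.59 for stroma of lymph nodes and spleen.

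For each of the 6 tested markers, the 3 genes with the most similar profile were sought among the other 13881 tested genes, by the root mean square (RMS) difference of standardized log2 CPM over the 10 libraries. Ptprc was nearest to Lsp1, a leukocyte gene (RMS difference 0.304, log2 FC 0.72), followed by Ubap1 (RMS difference 0.320). Cd3e was nearest to Hist1h2bc (RMS difference 0.161, log2 FC -1.12), followed by Pbld2 and Ddc at 0.223 and 0.226. Cd3g was nearest to Ppp6r1, Gbp7 and Mnt, Cd4 to Fev, Tfeb and Fbxl6, Cd79a to Pomk, Id3 and Flt3l, and Cd79b to Maml2, E330033B04Rik and Ttc37. For Cd79a the smallest RMS difference was 0.507, the largest among the 6 markers. Neither Cd79a nor Cd79b was among the 3 nearest genes of the other, and neither Cd3e nor Cd3g was.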

How the data were processed

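Pancreas libraries of 5 WT and 5 KSR23 mice were analyzed, grouped by the labels. Libraries were made from oligo-dT primed, amplified cDNA. The deposited values are raw counts per gene without normalization, for which the processing notes of the authors name FastQC, TopHat2 2.1.0, mm10 and HTSeq 0.6.1p1. No molecular identifiers were used, so that counting limits cover counting error only. The annotation and strand setting are not given in the sources used here. Tallies of alignments given to no gene were kept out of library sizes.

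Genes that reached 5 counts in each of the 10 libraries were tested with edgeR 4.0.16 (TMM scaling, quasi-likelihood F test, Benjamini-Hochberg adjustment over all tested genes, threshold 0.05) in R 4.3.3. Markers with fewer counts were taken from the same model on all genes with any count. The methods of the study name the likelihood ratio test, which was an alternative, as were DESeq2 1.42.0 (without its independent filtering and Cook's distance filter), RLE size factors, library size alone, filterByExpr, the replicate number as a block, and fits without 1 mouse or without WT mice 1 and 2, which earlier results had shown to be high in Reg3b. Log2 CPM used a prior count of 2. Standard errors are the log2 FC divided by the square root of F. The labels do not name separate litters or cages, so p-values measure the spread between these samples. The lowest chi-square per degree of freedom between libraries of a group was 11.9.

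The markers and lists were chosen with earlier results of these data known. All 9 markers are described. Of each list, up to 4 genes are named that were called without overlap and had the largest log2 FC, or the 2 most abundant where fewer than 2 qualified, and some genes that this rule names are not reported here. Syk, Cd247, Il2rg, Il7, Bcl2, Ptprcap, C1qa, C1qb, C1qc, Reg3b and genes at 0 were named in addition after their values were seen, as were the genes of the closing observations. So were Cd8b1, Lat, Cd2, Cd6, Thy1, Skap1, Tslp, Stat5a, Stat5b, Cish and Socs1. Positions and lengths are from GENCODE M21 (GRCm38, the assembly of mm10). RefSeq promoter windows were found for 7 of the 9 markers.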

Additional observations from a re-analysis of the deposited data

Results flagged for a closer look

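Among 17 groups of 5 CPM values of the markers, 1 held a value remote from the rest of its group. By chance 0.85 such groups would be found. KSR23 mouse 3, the smallest library, had 0.224 CPM of Cd8a against 0.0251 to 0.0592 CPM in the other 4 KSR23 mice, which rests on 4 counts.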

How the results depend on the processing

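Ptprc stayed higher and Cd3e lower with an adjusted p under 0.05 in all 18 alternative fits, with log2 FC of 0.59 to 0.84 and -1.62 to -1.36. Cd4 and Cd79a were called in none, and kept a log2 FC above 0. Cd79b, not called in any, changed sign under scaling by library size alone (log2 FC 0.064), and ranged from -0.11 to 0.11 over the fits without 1 mouse. Among genes with any count, 4 markers were called, against 2 with WT mice 1 and 2 left out together, 5 under scaling by library size alone and 6 with the likelihood ratio test. Over the fits without 1 mouse this number ranged from 3 to 4, and that of the 6 filtered markers from 2 to 3. Cd3g lost its call in 11 of 18 alternatives (adjusted p up to 0.143), Cd8a in 11 of 16 (up to 0.154) and Cd3d in 1 of 17. Il7r gained one in 4 of 16. With the replicate number as a block, 3749 genes were called against 4299 without it, Cd3g (adjusted p = 0.0574) and Cd8a (adjusted p = 0.154) lost their calls, and no other marker's call changed. The numbers name different mice, and the log2 CPM deviations of same-numbered libraries correlated between -0.11 and 0.07, so they do not pair the mice. The causes of these changes were not tested. At this depth Cd8a, at no more than 4 counts, and Cd3d in WT mice, at no more than 5, are near the limit of counting.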

Other observations

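Genes of the fixed lists that had too few counts for the filtered test were looked at in the fit on all genes with any count. They include genes of the pan-leukocyte list and of the lymph node and spleen stroma list. Of 50 such genes, 6 were called higher and none lower in KSR23 mice, a share of higher genes no greater than the 12.0% of all genes in that fit (10.9% were lower). Ptpn22, a phosphatase that restrains T cell receptor signals, had 23, 6, 9, 8 and 4 counts in WT mice and 36, 30, 47, 104 and 86 in KSR23 mice (log2 FC 2.26, edgeR quasi-likelihood, adjusted p = 0.000531). Blk, a kinase of B cells, had 2 to 10 counts in WT mice and 20 to 46 in KSR23 mice (log2 FC 2.15, adjusted p = 0.00134), and Cd22, an inhibitory coreceptor of B cells, had 3 to 12 and 7 to 66 (log2 FC 1.996, adjusted p = 0.0101). The KSR23 mice were above the WT mice without overlap in CPM for Ptpn22 and Blk.

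Il23r, which encodes the receptor subunit for the transgenic cytokine and marks innate and T lymphocytes that respond to it, had 0 counts in all 5 WT libraries and 15, 5, 5, 1 and 12 counts in the KSR23 libraries. The level of Il23r in the KSR23 group was 9.72 times a limit of 3 counts over the WT group, again without allowance for the counting error of the KSR23 counts. Like Cd8a, it entered the fit through its KSR23 counts alone, so that its adjusted p (0.00283, edgeR quasi-likelihood) is not independent of the choice of genes. Klrb1c, a receptor gene of natural killer cells, had 0 to 3 counts in WT mice and 2 to 12 in KSR23 mice (log2 FC 2.61, adjusted p = 0.0273), with overlap between the groups in CPM. No other gene of the natural killer and cytotoxic list was called in this fit. Their log2 FC ran from -1.08 (Prf1) to 3.94 (Fasl), with adjusted p from 0.0827 to 0.871 (edgeR quasi-likelihood). Zbtb16, a transcription factor gene of innate-like T cells, had 5 to 10 counts in WT mice and 60, 15, 3, 44 and 19 in KSR23 mice (log2 FC 1.48, adjusted p = 0.0383), with overlap between the groups. These genes were chosen after their values were seen, and no explanation was tested.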
